A study of Homo sapiens with 8 samples.

Results

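The thrombospondin family and its principal cell-surface receptors comprise 7 genes here: the secreted glycoproteins THBS1, THBS2, THBS3, THBS4 and COMP, and the receptors CD47 and CD36. The genes were chosen by name, and the transcript cluster (the array's unit of measurement) that stands for a gene was selected on measured values: among those annotated with its symbol alone, the one with the highest mean log2 signal over the 8 samples. All 7 genes were found, on 8 transcript clusters, among 33458 genes and 135750 transcript clusters in all. RNA came from LN229, an established human glioblastoma cell line, in 4 samples titled as controls (control-titled below) and 4 titled as held under compressive solid stress of 23 Pa (stress-titled), with 18 h given for both. Cells of both groups grew in serum-containing medium on the membrane of a Transwell insert. The compressed wells carried an agar cushion and steel discs, and control wells had neither, so that the weight and the cushion cannot be told apart. Titles and source names disagree in all 8 samples, in that the stress-titled samples are described as uncompressed and the control-titled ones as compressed. Grouping followed the titles, differences are stress-titled minus control-titled in log2 signal, and all signs turn if the source names are the right ones. The plots give the groups by their titles, no CSS and 23 Pa CSS. The family was put forward with the difference of THBS1 already known, so the values of THBS1, its interval and its call in the fit over all transcript clusters are given as a description and support nothing.

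Thrombospondins are calcium-binding matricellular proteins that sit between cells and the matrix and bind many receptors, proteases and growth factors at once. THBS1 and THBS2 assemble as trimers and carry type 1 repeats, the modules through which they bind CD36 and restrain the growth of blood vessels, while THBS3, THBS4 and COMP assemble as pentamers and lack those repeats. CD47 binds the carboxy-terminal domain of THBS1 and also displays to phagocytes, through SIRPA, that a cell should not be engulfed. THBS1 binds latent TGF-beta and can activate it, and in glioma it has been studied as a matrix protein of invading cells and as a brake on angiogenesis.

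Among the members THBS1 had the largest difference and THBS2 the smallest. Log2 signal of THBS1 lay 2.40 higher in the stress-titled samples (5.28-fold), that of CD47 lay 0.51 higher, and that of THBS2 differed by 0.00. In bulk RNA, fewer or more cells that express a gene and less or more RNA per cell cannot be told apart. Of the 7 members, 1 passed the threshold used throughout, an adjusted p under 0.05, and that was THBS1 itself. Across all genes 2.32% passed, 1.36% as higher and 0.962% as lower, and across all transcript clusters 2.01% passed, 0.581% as higher and 1.43% as lower. The groups did not overlap for 2 of the 7, THBS1 and CD47, both higher, as for 13.7% of all genes, or 9.11% counting only those higher. The family was chosen with this contrast known, and nothing is read from these counts.

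The RefSeq promoters (GRCh38.p14, each running from 250 bases before to 50 after the annotated start, written 5′ to 3′ on the gene's strand) are shown for THBS1, which differed most, for its closest relative THBS2, which did not pass, and for the receptor CD47. They lie at chr15:39580829-39581128 on the plus strand, chr6:169253797-169254096 on the minus strand and chr3:108090982-108091281 on the minus strand. Capitals mark matches, on either strand, to the letters of the EGR1 motif (GCGNGGGCG), the TEAD core (GGAATG) and the CCAAT box (CCAAT).
THBS1 promoter: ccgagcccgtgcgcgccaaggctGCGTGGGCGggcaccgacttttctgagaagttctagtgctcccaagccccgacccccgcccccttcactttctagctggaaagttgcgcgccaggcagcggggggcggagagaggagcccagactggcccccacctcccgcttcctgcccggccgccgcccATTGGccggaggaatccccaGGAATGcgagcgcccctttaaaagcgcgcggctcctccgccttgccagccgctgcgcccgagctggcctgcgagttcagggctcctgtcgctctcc
THBS2 promoter: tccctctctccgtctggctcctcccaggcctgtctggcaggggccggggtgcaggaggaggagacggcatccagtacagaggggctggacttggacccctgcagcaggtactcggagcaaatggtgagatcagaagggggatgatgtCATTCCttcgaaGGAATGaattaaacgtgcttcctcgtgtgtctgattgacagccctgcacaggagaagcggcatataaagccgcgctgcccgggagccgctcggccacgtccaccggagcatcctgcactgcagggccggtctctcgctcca
CD47 promoter: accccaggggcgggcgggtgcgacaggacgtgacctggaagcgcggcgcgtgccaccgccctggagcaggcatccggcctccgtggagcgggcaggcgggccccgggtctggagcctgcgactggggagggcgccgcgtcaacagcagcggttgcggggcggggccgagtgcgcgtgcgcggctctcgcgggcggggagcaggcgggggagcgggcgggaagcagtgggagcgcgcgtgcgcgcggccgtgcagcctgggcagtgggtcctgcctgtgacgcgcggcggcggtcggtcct
The THBS1 window held 1 match to each of these motifs, starting at −227, −46 and −66 from the start site, and the THBS2 window held 2 TEAD core matches, at −103 and −91. The CD47 window held no match to the marked motifs. Of 35116 RefSeq windows of up to 300 bases, 9.43% held the EGR1 letters, 14% the TEAD core and 34.6% the CCAAT box. The core of the hypoxia response element (ACGTG or GCGTG) was found at 1 place in the THBS1 window, where it overlaps the EGR1 match, at 2 in THBS2 and at 4 in CD47, and it occurs in 48.4% of windows. The GC box (GGGCGG) was found at 4 places in THBS1, at 0 in THBS2 and at 6 in CD47, against 45% of windows with at least 1. In THBS1 one of these overlaps the EGR1 match. No window of these 3 genes held the AP-1 motif (TGANTCA), which 7.71% of all windows hold. These are matches of letters, and binding was not measured.

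THBS1 (transcript cluster TC1500006925.hg.1, chromosome 15) encodes the trimeric glycoprotein thrombospondin-1. Its log2 signal was 11.52, 11.00, 11.20 and 11.41 in control-titled replicates 1 to 4 and 12.94, 14.22, 13.81 and 13.75 in stress-titled replicates 1 to 4. The groups did not overlap, and the lowest stress-titled sample lay 1.42 above the highest control-titled sample. Means were 11.28 ± 0.228 and 13.68 ± 0.538 (SD, n = 4 each), a difference of 2.40 with a 95% interval of 1.84 to 2.96, or 3.57-fold to 7.80-fold. Single stress-titled samples stood 1.66, 2.94, 2.53 and 2.47 above the mean of the control-titled samples, replicate 1 being the lowest. By size of rise THBS1 ranked 9 among 33458 genes, and 0.0628% of genes had a larger difference in either direction.

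THBS2 (TC0600013998.hg.1, chromosome 6), the other trimeric thrombospondin, gave 15.73, 16.21, 16.31 and 15.80 in the control-titled samples and 16.30, 15.77, 15.98 and 15.99 in the stress-titled samples. The groups covered almost the same range. Means were 16.01 ± 0.29 and 16.01 ± 0.219 (SD, n = 4 each), and the difference of 0.00 had a 95% interval of −0.43 to 0.43 (limma adjusted p = 0.998). Signals of different probes are not on a common scale, so the level of THBS1 is not set against that of THBS2.

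**Figure D1:**
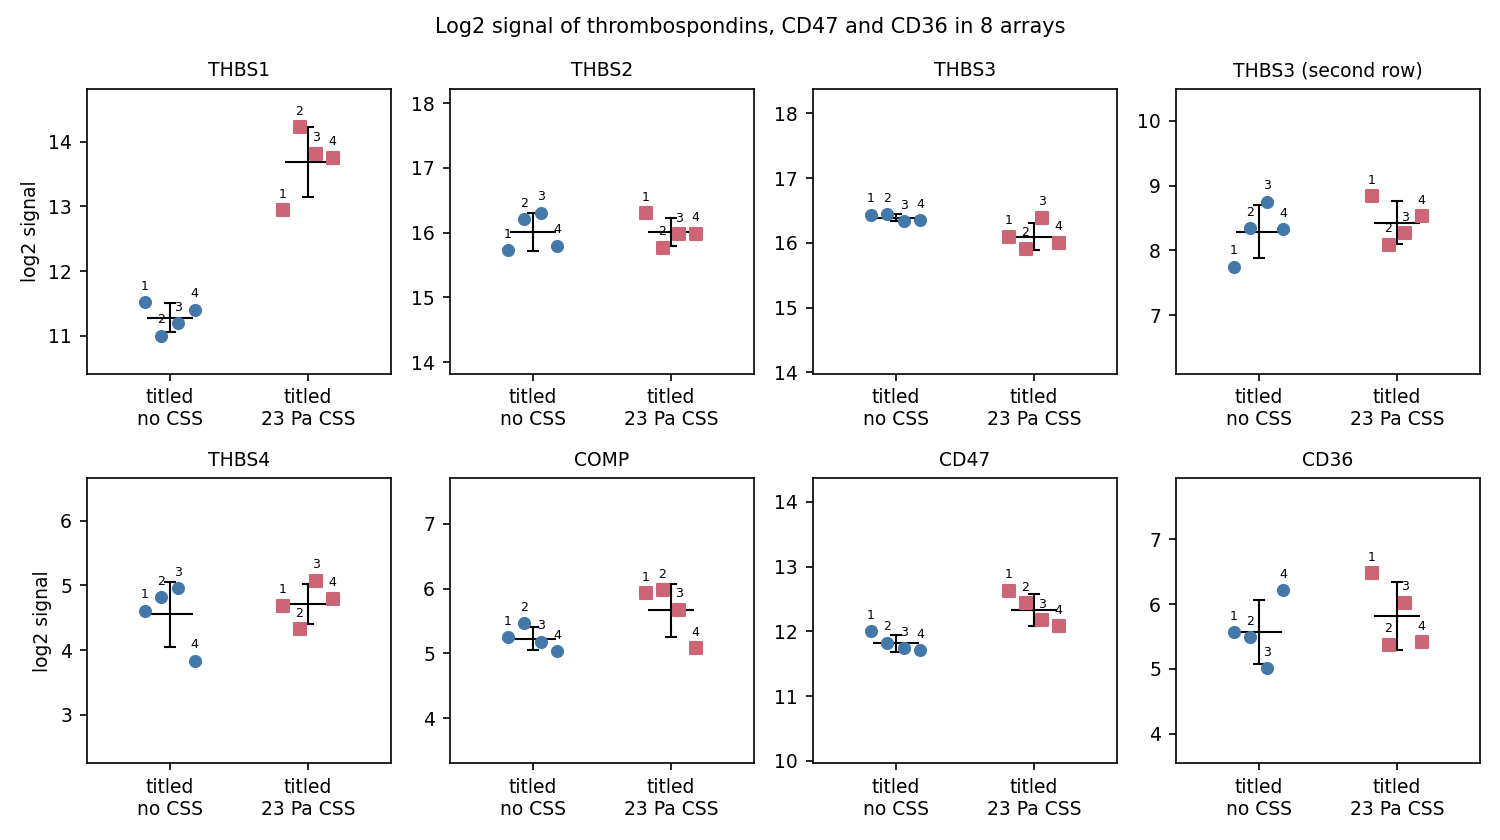
Log2 signal (vertical axis, each panel spanning the same number of log2 units) of the 7 genes and of the second THBS3 transcript cluster in the 8 samples, with replicate numbers beside the points and the mean ± SD of each group (n = 4) in black. THBS1 and CD47 are the panels in which the groups do not overlap, with gaps of 1.42 and 0.0789 log2 units.

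Among the pentameric thrombospondins, none passed. THBS3, whose product is a matrix protein of cartilage and bone, had 2 transcript clusters. The brighter one, which stands for the gene here (TC0100015947.hg.1, chromosome 1), carries the symbol without an Entrez identifier, and gave 16.43, 16.44, 16.33 and 16.35 in the control-titled samples and 16.09, 15.91, 16.39 and 16.00 in the stress-titled samples. Stress-titled replicate 3 lay within the range of the control-titled samples, and the other 3 lay below it. The difference was −0.29, from 16.39 ± 0.057 to 16.10 ± 0.207 (SD, n = 4 each, 95% interval −0.65 to 0.07, limma adjusted p = 0.425).

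The dimmer THBS3 transcript cluster (TC0100015945.hg.1), which does carry the Entrez identifier of the gene, ranged from 7.75 to 8.75 in the control-titled samples and from 8.09 to 8.84 in the stress-titled samples. Its difference had the opposite sign, 0.14 (95% interval −0.39 to 0.66, limma adjusted p = 0.846). In the values as deposited the transcript clusters thus disagree in sign, and neither passed. Without control-titled replicate 1 the dimmer one differed by −0.04, the same sign as the brighter one. Which of them reports the THBS3 messenger RNA was not tested. RefSeq also places an antisense gene, THBS3-AS1, across THBS3, and it is not analysed here.

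THBS4 (TC0500007901.hg.1, chromosome 5), a matrix protein of tendon and muscle, gave 4.61, 4.82, 4.96 and 3.84 in the control-titled samples and 4.68, 4.33, 5.07 and 4.79 in the stress-titled samples. These values lie among the negative control probes of the array: 40.2% of the 612 negative control rows had a lower mean than THBS4, and on no array did it exceed their 95th percentile, which lay between 7.17 and 7.84. Its difference of 0.16 (95% interval −0.40 to 0.73, limma adjusted p = 0.826) therefore sets no level of THBS4 RNA in either group. The antisense transcript THBS4-AS1, also below that percentile on all arrays, was 3.47 ± 0.103 and 3.71 ± 0.282 (SD, n = 4 each, limma adjusted p = 0.576).

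COMP (TC1900010031.hg.1, chromosome 19), the cartilage oligomeric matrix protein, gave 5.25, 5.47, 5.18 and 5.03 in the control-titled samples and 5.93, 5.98, 5.68 and 5.08 in the stress-titled samples. In 3 stress-titled samples the signal was above all the control-titled samples, and replicate 4 fell inside their range. The difference was 0.44 (95% interval −0.04 to 0.91, limma adjusted p = 0.364). COMP also stayed under the 95th percentile of the negative control rows on all 8 arrays, with 64.7% of those rows below it, so neither group shows a level well above background.

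CD47 (TC0300011936.hg.1, chromosome 3), the integrin-associated receptor of thrombospondin, was well above the negative control rows on all 8 arrays. It gave 12.00, 11.82, 11.74 and 11.71 in the control-titled samples and 12.62, 12.44, 12.17 and 12.08 in the stress-titled samples. The groups did not overlap, by a gap of 0.0789. Means were 11.82 ± 0.134 and 12.33 ± 0.247 (SD, n = 4 each), a difference of 0.51 or 1.43-fold (95% interval 0.13 to 0.90, unadjusted p = 0.0138 and limma adjusted p = 0.17 over all transcript clusters). An unadjusted p under 0.05 was found for 19.3% of all genes. On arrays centred on their hybridisation controls the difference was 0.20 (adjusted p = 0.57).

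CD36 (TC0700008190.hg.1, chromosome 7), the scavenger receptor that binds the type 1 repeats as well as fatty acids, gave 5.57, 5.49, 5.01 and 6.22 in the control-titled samples and 6.47, 5.37, 6.02 and 5.41 in the stress-titled samples. The groups overlapped over most of their range. The difference was 0.25 (95% interval −0.41 to 0.91, limma adjusted p = 0.759), and on no array did CD36 exceed the 95th percentile of the negative control rows, of which 72.2% lay below its mean. Among markers of cell types known to carry CD36, 0 of 5 platelet, 0 of 5 endothelial and 0 of 5 adipocyte markers exceeded that percentile on any array, and 0 of 5 in each of these lists passed. Of 5 macrophage markers, CD68 exceeded it on all 8 arrays and passed as higher, and the other 4 exceeded it on none.

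**Figure D2:**
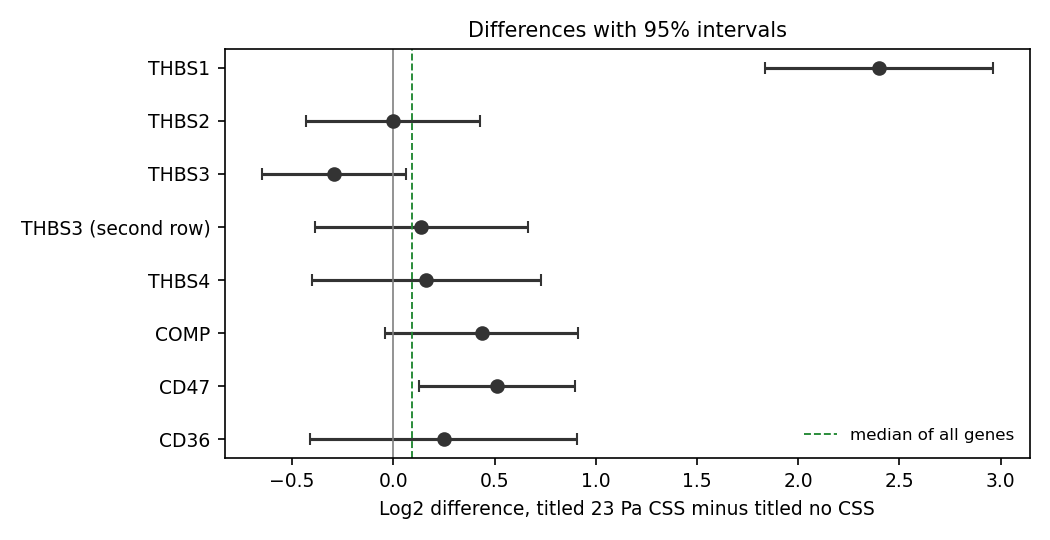
Difference in log2 signal, stress-titled minus control-titled (horizontal axis), with the 95% interval of the limma fit for each gene and for the second THBS3 transcript cluster (4 samples per group). The grey line marks 0 and the dashed line the median of all genes, 0.0938. The THBS1 interval runs from 1.84 to 2.96 and that of CD47 from 0.13 to 0.90, and the other intervals include 0.

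The 4 hybridisation control rows were higher on average in the stress-titled samples. Single control-titled arrays ran from 9.97 (replicate 4) to 10.38, and single stress-titled arrays from 10.39 to 10.66, so the groups nearly touched. The mean of these rows was 10.20 in the control-titled samples and 10.51 in the stress-titled samples, a difference of 0.311. The median of all genes differed by 0.0938. Centred on these controls, the median of all genes was −0.217, THBS1 differed by 2.09, COMP by 0.12, CD36 by −0.06, THBS4 by −0.15, THBS2 by −0.31 and THBS3 by −0.60. The sign of CD36 and THBS4 thus turned with this scaling, and that of THBS1, COMP, CD47, THBS2 and THBS3 (brighter transcript cluster) did not. The dimmer THBS3 transcript cluster turned sign, to −0.17. The part of array handling in the results was not tested.

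Beyond CD47 and CD36, 16 other receptors and co-receptors of thrombospondins were measured, and they went both ways. ITGA3, the alpha subunit of a laminin and thrombospondin receptor, rose by 1.28 (95% interval 0.76 to 1.79, limma adjusted p = 0.0245), and NLGN1, the synaptic adhesion molecule neuroligin 1, which binds thrombospondin in rodent neurons, fell by 1.43 (adjusted p = 0.0265). The other 14 did not pass, where 1.36% of all genes passed as higher and 0.962% as lower. NLGN1 gave 9.12, 9.18, 8.94 and 9.17 in the control-titled samples and 7.18, 8.48, 7.82 and 7.21 in the stress-titled samples, so that the groups did not overlap and the spread was wider in the latter, of which 2 exceeded the 95th percentile of the negative controls. LRP1, the endocytic receptor that clears thrombospondins, was 0.90 higher (adjusted p = 0.0779) and the integrin subunit ITGB5 0.84 higher (adjusted p = 0.0793). The alpha subunits ITGA4 and ITGAV differed by −0.79 (adjusted p = 0.125) and −0.96 (adjusted p = 0.148). ITGA4 exceeded the 95th percentile of the negative controls on 3 arrays, all control-titled, so its difference is toward a group not above background.

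ITGB3, which pairs with ITGAV to bind the thrombospondin RGD sequence, was 15.21 ± 0.181 and 15.02 ± 0.239 (SD, n = 4 each, limma adjusted p = 0.689). CALR, the chaperone that with LRP1 binds the amino-terminal domain of THBS1 at the cell surface, was 18.44 ± 0.117 and 18.75 ± 0.11 (adjusted p = 0.364). CACNA2D1, the calcium channel subunit through which thrombospondins act on synapses in rodents, lay below the 95th percentile of the negative controls in all samples. The median difference of the 16 receptors was 0.0664, beside 0.0938 for all genes. With hybridisation controls as the centre it was −0.245, and 1 passed as higher and 3 as lower. Of all 33458 genes, 201 passed as higher and 1530 as lower with that centring. ITGA3 lost its call without 5 of the single samples and NLGN1 without 6 of them.

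Of 18 partners, relatives and signalling genes of CD47 and CD36, 0 passed in limma, beside 2.32% of all genes. Quantile normalization gave 2 higher and 0 lower, beside 662 higher and 235 lower of all 33458 genes. An unadjusted p under 0.05 was found for 8 of the 18, beside 19.3% of all genes. The tetraspanin CD81, a membrane partner of CD36, was 0.76 higher (adjusted p = 0.056). UBQLN2, of the ubiquilin family that binds the CD47 tail, was 0.62 higher (adjusted p = 0.0698), CAV1, the coat protein of caveolae, 0.68 higher (adjusted p = 0.0736) and the Src-family kinase YES1 differed by −1.07 (adjusted p = 0.118). SIRPA, the counter-receptor of CD47, was 9.91 ± 0.406 and 10.37 ± 0.278 (SD, n = 4 each, adjusted p = 0.364). QPCTL, the enzyme that modifies CD47 for SIRPA binding, was 6.44 ± 0.337 and 7.13 ± 0.255 (adjusted p = 0.122), below the 95th percentile of the negative controls. SCARB1, a relative of CD36 that takes up lipoprotein lipids, was 13.99 ± 0.501 and 13.62 ± 0.358 (adjusted p = 0.566). The median of the list was 0.331, and 0.0196 on arrays centred on hybridisation controls. With that centring 0 were higher and 1 lower, beside 201 higher and 1530 lower of all 33458 genes.

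Of 19 measured growth-factor, matrix and protease partners of thrombospondins, 5 rose, 0 fell and 14 did not pass. Across all genes 1.36% passed as higher and 0.962% as lower. TGFB1, the cytokine whose latent form THBS1 can activate, rose by 1.46 (limma adjusted p = 0.0219), and LTBP1, which tethers latent TGF-beta to the matrix, rose by 0.97 (adjusted p = 0.0423). LTBP1 gave 6.93, 7.48, 6.67 and 6.74 in the control-titled samples and 8.01, 7.92, 7.64 and 8.11 in the stress-titled samples, without overlap. Only the 4 stress-titled samples exceeded the 95th percentile of the negative controls, so the size of the difference is against a group not above background. VEGFA, the angiogenic factor that THBS1 binds and opposes, rose by 1.57 (adjusted p = 0.00714). COL5A1, a chain of the fibrillar collagen V that binds thrombospondin, rose by 1.06 (adjusted p = 0.0248) and the membrane protease MMP14 by 0.91 (adjusted p = 0.0257).

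TNFAIP6, a hyaluronan-binding protein that binds THBS1, differed by −0.73 (adjusted p = 0.0803), and the matrix glycoprotein FN1 by 0.48 (adjusted p = 0.227). MMP2 and the cartilage matrix protein MATN3 differed by 0.32 (adjusted p = 0.322) and 0.36 (adjusted p = 0.365). ADAMTS1, the protease that cleaves THBS1 and THBS2, was 11.64 ± 0.541 and 11.84 ± 0.249 (SD, n = 4 each, adjusted p = 0.781). The median of the list was 0.199, and −0.112 on arrays centred on hybridisation controls, where 3 were higher and 1 lower. Of all 33458 genes, 201 were then higher and 1530 lower. With that centring LTBP1 and MMP14 no longer passed, and TGFB1, LTBP1, COL5A1 and MMP14 did not pass without 4 to 6 of the 8 single samples, whereas VEGFA passed under each of 15 alternatives. COL5A1 was below the 95th percentile of the negative controls on all arrays.

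Of 52 other genes that share the type 1 repeat with THBS1, 2 rose, 0 fell and 50 did not pass, where 1.36% of all genes passed as higher and 0.962% as lower, and the list median of 0.0783 lay beside 0.0938 for all genes. Both that rose were CCN genes, CCN1 (1.22, limma adjusted p = 0.0293) and CCN2 (1.06, adjusted p = 0.0314), which encode matricellular proteins of the matrix around cells. HMCN1, an extracellular hemicentin, differed by −1.09 (adjusted p = 0.0802), CCN6 by 0.69 (adjusted p = 0.192), and the proteases ADAMTS20 and ADAMTS3 by −0.51 (adjusted p = 0.226) and −0.74 (adjusted p = 0.242). Only 7 of the 52 exceeded the 95th percentile of the negative controls on all 8 arrays, and CCN1 did so on 0 arrays and CCN2 on 4. On arrays centred on hybridisation controls the list median was −0.233, with 0 higher and 4 lower, and CCN1 and CCN2 lost their calls. Of all 33458 genes, 201 were higher and 1530 lower with that centring, so nothing is read from these counts.

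Of 13 measured regulators described for THBS1 in other cells, 3 rose, 0 fell and 10 did not pass. The shares over all genes were 1.36% higher and 0.962% lower. EPAS1, the oxygen-regulated HIF2-alpha subunit, gave 7.09, 7.35, 7.20 and 6.61 in the control-titled samples and 8.80, 8.30, 8.76 and 8.35 in the stress-titled samples. It rose by 1.49 (95% interval 1.03 to 1.95, limma adjusted p = 0.011). The 4 stress-titled samples exceeded the 95th percentile of the negative controls and the 4 control-titled ones did not, so that the size of the difference is against a group not above background. JUN, a subunit of AP-1, rose by 1.62 (adjusted p = 0.0141), and MYC, which represses THBS1 in several cell types, by 0.93 (adjusted p = 0.0477). SP1, a factor that binds GC boxes, differed by 0.43 (adjusted p = 0.212), USF2 by 0.53 (adjusted p = 0.228), the zinc finger factor EGR1 by 0.82 (adjusted p = 0.235) and the TGF-beta effector SMAD2 by −0.38 (adjusted p = 0.244).

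HIF1A, the other oxygen-regulated subunit, was 17.89 ± 0.125 and 17.51 ± 0.362 (SD, n = 4 each, adjusted p = 0.386). YAP1 and WWTR1, which act through TEAD factors, were 0.31 higher (adjusted p = 0.586) and −0.04 (adjusted p = 0.951). The median of the regulators was 0.422, and 0.111 on arrays centred on hybridisation controls. EPAS1 and JUN passed under each of 15 alternatives, whereas MYC lost its call without any single one of the 8 samples and lay below the 95th percentile of the negative controls on every array.

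**Figure D3:**
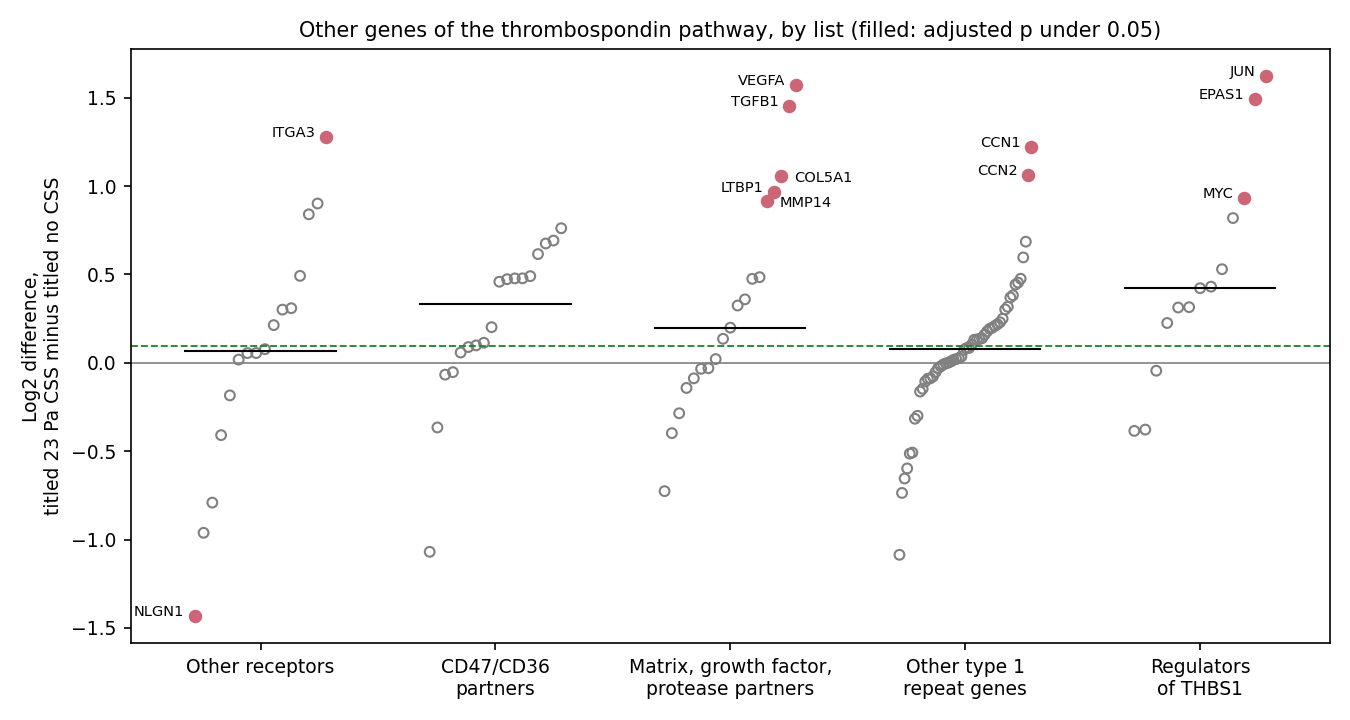
Difference in log2 signal, stress-titled minus control-titled (vertical axis), for the genes of 5 lists, each point a gene (filled and named where the limma adjusted p was under 0.05), with the list median as a black bar. The dashed line is the median of all genes, 0.0938. The filled points are 11 genes above 0 and NLGN1 below it, at −1.43.

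Counting each gene once, 117 genes of these lists were measured and 12 of them passed, 11 higher and 1 lower, or 10.3% beside 2.32% of all genes. The lists were put together with earlier results of these data known, so the share is a description. Of the 12, 3 passed under every alternative tried (VEGFA, JUN and EPAS1), and the other 9 lost their call when at least 1 single sample was left out.

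The genes with signal most like that of THBS1 over the 8 samples were sought among all genes above the median mean signal. TEX2, a lipid transfer protein of the endoplasmic reticulum, had the highest Pearson r (0.990), followed by ZNF526 (0.986), the phosphatase inhibitor PPP1R14A (0.978), the sorting adaptor PACS1 (0.977) and the pseudogene BNIP3P1 (0.974). The most opposed were SLC25A13, a mitochondrial aspartate and glutamate carrier (−0.995), the vesicle protein VPS45 (−0.981) and SELENOM, a selenoprotein of the endoplasmic reticulum (−0.977). With 2 separate groups a pooled r is set largely by the difference between them. Over deviations from the group means r was 0.915 for TEX2, 0.854 for ZNF526, 0.686 for PPP1R14A, 0.689 for PACS1, 0.638 for BNIP3P1, −0.956 for SLC25A13, −0.747 for VPS45 and −0.734 for SELENOM. These are the extremes of a search over 16728 genes on the same 8 arrays and describe these samples. Among the members above that median, r with THBS1 over the 8 samples was 0.743 for CD47, 0.552 for COMP, 0.133 for CD36, −0.240 for THBS2 and −0.750 for THBS3. Over deviations from the group means it was −0.328 for CD47, −0.185 for COMP, −0.457 for CD36, −0.824 for THBS2 and −0.193 for THBS3.

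In RefSeq (GRCh38.p14) the nearest measured protein-coding genes before THBS1 on chromosome 15 are RASGRP1 and FAM98B, and those after it FSIP1 and GPR176. This comparison was added after the THBS1 values were seen. FSIP1, named for its product's binding to the sperm fibrous sheath, was 5.05 ± 0.303 and 5.66 ± 0.168 (SD, n = 4 each), a difference of 0.61 that did not pass (limma adjusted p = 0.132), although its groups did not overlap. RASGRP1, FAM98B and GPR176 differed by 0.13, −0.33 and −0.04 (adjusted p = 0.824, 0.556 and 0.958). None of the 4 came near the THBS1 difference of 2.40, and the highest upper end of their 95% intervals was 1.03, for FSIP1. The means of FSIP1 and of RASGRP1 (5.64 and 5.77) lay below the 95th percentile of the negative controls, 7.17 to 7.84. Those of GPR176 (7.66 and 7.62) lay within that span. This limits what their differences can show, and whether the region around THBS1 changed was not tested.

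**Figure D4:**
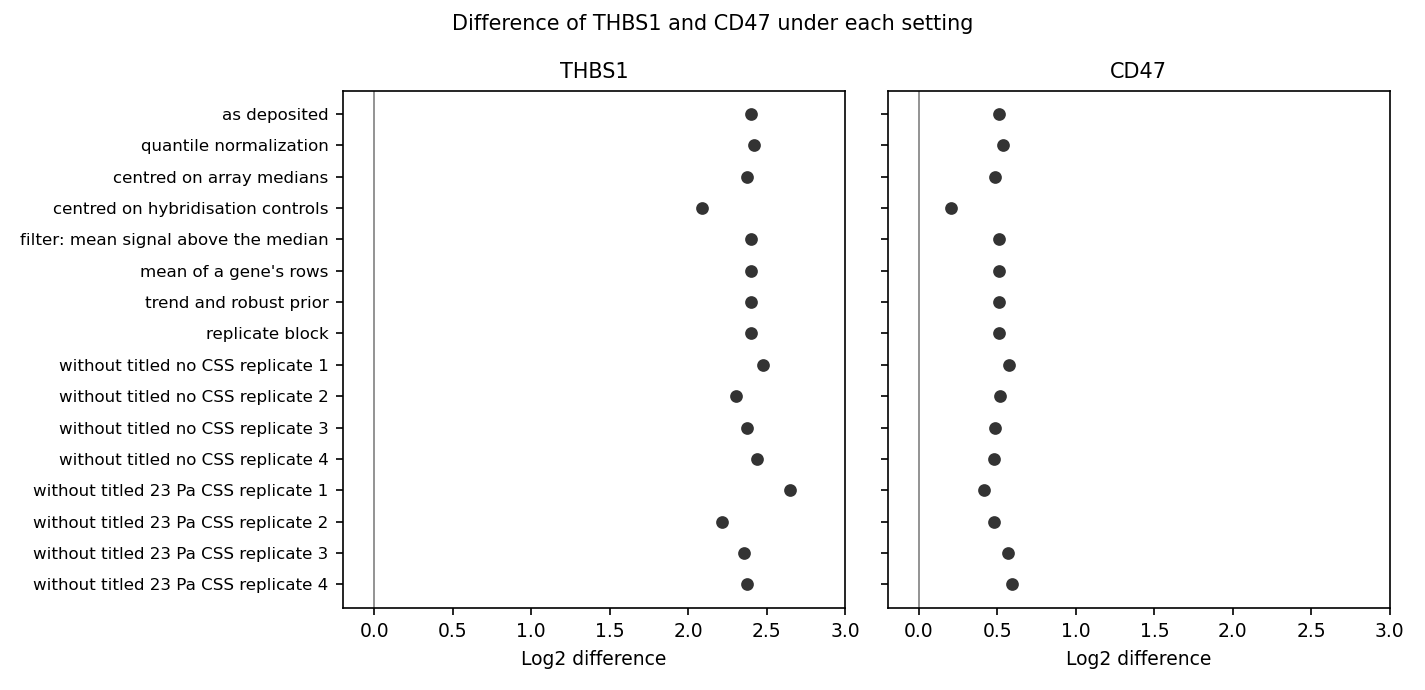
Log2 difference of THBS1 and of CD47 (horizontal axes), stress-titled minus control-titled, under 16 settings, namely the values as deposited and 15 alternatives including each of the 8 samples left out. THBS1 lay between 2.09 and 2.65 and CD47 between 0.20 and 0.59, with the lowest value of each on arrays centred on hybridisation controls.

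Of 8 markers listed for LN229 cells, 6 (VIM, NES, CD44, EGFR, FN1 and SOX2) exceeded the 95th percentile of the negative controls on all 8 arrays. GFAP and OLIG2, markers of astrocytes and oligodendrocyte lineage, did not on any. Whether these levels tell LN229 from other cell lines was not tested. Of 5 macrophage markers, CD68, which is also a lysosomal protein of many cell types, rose by 1.49 (limma adjusted p = 0.0132) but did not pass without control-titled replicate 4. The mean log2 signal of the macrophage list was 6.11 to 6.42 in the control-titled samples and 6.53 to 7.10 in the stress-titled samples. That of the LN229 list was likewise separate, at 10.53 to 10.86 and 11.14 to 11.28. For the platelet, endothelial, adipocyte and chondrocyte lists the ranges of the groups overlapped. The defining leukocyte marker PTPRC was 4.83 ± 0.112 and 5.59 ± 0.234 (SD, n = 4 each), 0.75 higher without overlap (limma adjusted p = 0.0505), and passed under 2 of 15 alternatives. PTPRC and the other 3 (AIF1, CD163 and CSF1R) stayed below the 95th percentile of the negative controls on all arrays. The part of such cells in the results was not tested. Of 5 chondrocyte markers 0 passed, with 0 at an unadjusted p under 0.05.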

How the data were processed

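RNA of 8 LN229 samples was measured on expression arrays, in groups of 4 taken from the titles. The series text names the array as a Human Transcriptome Array 2.0, and whether the deposited rows belong to that array was not tested. The deposited table holds log2 signal per transcript cluster and sample. Transcriptome Analysis Console is named, without a version, per the submitters' processing notes. Summarisation, normalization and genome build are not given in the sources used here. After 2995 control rows were set aside, 135750 transcript clusters were fitted without a filter, on the deposited log2 values, using limma (version 3.58.1, R version 4.3.3). The two-sided moderated test had 6 residual and 5.28 prior degrees of freedom. Benjamini-Hochberg adjustment covered all 135750 p-values, and an adjusted value under 0.05 passed. Intervals of 95% use the moderated standard error. Symbols came from the platform annotation, updated to RefSeq through Entrez identifier (25516), symbol (9899) or synonym (623), and 138 stayed unmatched. Of the list genes, 10 are not analysed here. Figures were drawn with matplotlib 3.10.9.

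The members, gene lists and tests were chosen with earlier results of these data known. From each list the genes that passed and up to 4 others with the smallest p were named, as were further genes for their role, chosen after their values were seen. Nothing in the labels says that replicates came from separate cultures, so the p-values reflect variation among these arrays alone, and that variation may be technical. The number of arrays limits precision. The fitting procedure was tested on simulated data. Alternatives were other scalings, a filter on dim rows, the mean of the rows of a gene, a trended robust prior, a replicate block and leaving out each sample.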

Additional observations from a re-analysis of the deposited data

How the results depend on the processing

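THBS1 differed by 2.09 to 2.65 over 15 alternatives, and by 2.22 to 2.65 without single samples. The count of members past the threshold was 1 under each. Without single samples THBS2 ranged from −0.0995 to 0.0976, THBS3 from −0.389 to −0.229, THBS4 from −0.0765 to 0.298, COMP from 0.332 to 0.631, CD47 from 0.415 to 0.595 and CD36 from 0.0304 to 0.463. THBS2, whose difference was near 0, turned sign without control-titled replicate 2 or 3 (0.0631 and 0.0976) and without stress-titled replicate 2, 3 or 4 (0.0778, 0.00798 and 0.00571), and THBS4 without control-titled replicate 4 (−0.0765). On arrays centred on hybridisation controls THBS4 (−0.148) and CD36 (−0.0627) turned sign. The cause was not tested. With the mean of both transcript clusters THBS3 differed by −0.0778.

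Over all transcript clusters 2727 passed, 789 higher and 1938 lower. The count was 8581 (373 higher and 8208 lower) on arrays centred on hybridisation controls, 4370 among rows above the median signal, where fewer were tested, and 1329 with a replicate block. Quantile normalization gave 1126 higher and 1448 lower. Without single samples it ran from 411 (without control-titled replicate 4) to 5360 (without stress-titled replicate 3), and each of the 8 moved it by over 1.5 times. Of the 117 list genes 12 passed, 7 with a replicate block and 3 (without control-titled replicate 4) to 15 (without stress-titled replicate 3) without single samples. The replicate block changed no call of a member. Samples with the same replicate number did not deviate together (r of −0.0295, −0.0178, −0.0791 and −0.0460 for numbers 1 to 4), so the numbers were not taken as pairs. The mean of a gene's rows gives no count over transcript clusters. Signals of THBS4, COMP and CD36 lay among the negative control rows, which limits what their differences can show.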
